A study of Mus musculus with 5 samples.

Results

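Among 11531 protein-coding mouse genes with a span of 10 to 100 kb, 146 were touched by at least 2 H3K36me3 peaks in each of 2 separately called peak lists. Their peaks, 743 in all, are the subject here: 368 of the 7231 peaks of series 1 (5.09%) and 375 of the 10243 peaks of series 2 (3.66%). The genes were chosen by the number of peaks in both lists, counted from 1 shared base on chromosomes 1 to 19, X and Y, so the peak numbers below describe the choice and support nothing. A peak is a stretch in which the caller found more ChIP reads than in input, and each carries the authors' score, a whole number of at least 10 whose meaning is not given in the sources used here. The chromatin came from mTEClo, medullary thymic epithelial cells with low CD80 (EpCAM+ UEA-1+ Ly51lo CD80lo), sorted from the thymus of wild-type B6 mice. An H3K36me3 antibody (Abcam ab9050) was used for the 2 ChIP libraries, called series 1 and series 2, and the 3 input libraries had no antibody. All libraries share strain, genotype and sort, no treatment or age is given, and although the cells came from individual mice, no mouse is tied to a library. With 1 library in each series there is no replicate test, and how deeply each was sequenced is not known.

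H3K36me3 is trimethylation of lysine 36 of histone H3. The enzyme Setd2 travels with elongating RNA polymerase II and writes the mark along the bodies of transcribed genes, typically more towards their 3′ end and little at the promoter. Medullary thymic epithelial cells present self antigens to developing T cells, and the CD80-low cells hold the less mature ones.

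The start windows of these genes were almost free of peaks. RefSeq windows of 300 bases spanning an annotated start (GRCm38.p6, the assembly of mm10) were at hand for 122 of the 146 genes, 152 windows in all. A series 1 peak touched 1 of them (0.658%, exact binomial 95% interval 0.0167 to 3.61%) and a series 2 peak touched 0, which allows a share of up to 1.97%. Over all mid-length coding genes, 4 and 7 of 11541 windows were touched. Shown here, 5′ to 3′, are the start windows of the 3 genes with a window in which most series 1 peaks were overlapped by series 2, with ties settled by shared bases. They are examples and do not stand for the set. Srcap, Polr2a and Cep89 hold 16, 30 and 12 CG dinucleotides, against a median of 23.5 over the 152 windows. Capitals mark each match, on either strand, to the GC box letters GGGCGG. The ETS letters CCGGAAG were also searched and stand in none of these windows.

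Srcap, chr7:127511733-127512032, plus strand: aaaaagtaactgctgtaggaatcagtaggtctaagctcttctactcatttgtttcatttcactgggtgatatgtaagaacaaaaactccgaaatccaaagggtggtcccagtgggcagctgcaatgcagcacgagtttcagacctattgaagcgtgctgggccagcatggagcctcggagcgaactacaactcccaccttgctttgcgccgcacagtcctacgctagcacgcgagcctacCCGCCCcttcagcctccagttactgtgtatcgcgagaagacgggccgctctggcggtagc
Polr2a, chr11:69758584-69758883, minus strand: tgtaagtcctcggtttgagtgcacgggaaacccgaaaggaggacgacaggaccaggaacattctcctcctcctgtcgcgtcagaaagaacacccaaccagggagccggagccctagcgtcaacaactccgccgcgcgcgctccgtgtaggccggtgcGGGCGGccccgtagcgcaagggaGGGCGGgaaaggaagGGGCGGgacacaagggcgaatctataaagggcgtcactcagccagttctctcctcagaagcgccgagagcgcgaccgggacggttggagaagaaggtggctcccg
Cep89, chr7:35396813-35397112, plus strand: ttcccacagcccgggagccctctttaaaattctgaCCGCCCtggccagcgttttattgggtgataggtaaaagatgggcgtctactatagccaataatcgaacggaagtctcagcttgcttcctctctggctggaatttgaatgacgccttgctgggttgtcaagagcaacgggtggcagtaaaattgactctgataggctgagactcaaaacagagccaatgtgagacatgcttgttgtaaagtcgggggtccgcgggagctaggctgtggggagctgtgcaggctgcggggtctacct

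The nearest peaks lay 2.27 kb (series 1) and 1.71 kb (series 2) from the Srcap window, 18.7 and 18.3 kb from that of Polr2a, and 3.90 and 3.97 kb from that of Cep89. The window met by a peak belongs to Acpp, which encodes prostatic acid phosphatase. All of its 300 bases lay under a series 1 peak of 709 bp and score 23, and capitals mark the bases under the peak, here the whole window. The other peaks of Acpp kept apart: those of series 1 lay at 16.5 and 27.7% of the way to the 3′ end and the 4 of series 2 at 57.6 to 74.8%.

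Acpp, chr9:104337673-104337972, minus strand: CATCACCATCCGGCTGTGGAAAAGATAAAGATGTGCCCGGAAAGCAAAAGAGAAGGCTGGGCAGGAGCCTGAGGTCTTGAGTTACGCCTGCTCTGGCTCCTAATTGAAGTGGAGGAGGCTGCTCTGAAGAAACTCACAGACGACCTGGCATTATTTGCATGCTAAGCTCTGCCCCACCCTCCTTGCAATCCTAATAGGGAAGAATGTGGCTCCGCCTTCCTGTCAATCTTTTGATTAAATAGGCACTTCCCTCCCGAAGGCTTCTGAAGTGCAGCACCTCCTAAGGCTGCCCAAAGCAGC

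The windows of repeatedly hit genes were rich in CpG, with a median of 23.5 CG dinucleotides against 16 over all mid-length coding genes. The 855 mid-length genes that were hit in both lists but not at least 2 times in each had nearly the same median, 23. The GC box letters stood in 61.2% of the windows of repeatedly hit genes, 52.9% of those of mid-length genes and 66.2% of those of the 855 genes. For the ETS letters the shares were 23.0%, 13.7% and 20.5%. The TATA box letters TATAAA were in 7.24%, 8.85% and 5.71%. The NRF1 letters GCGCATGCG were in 5.92%, 2.96% and 4.84%, and the YY1 letters AAGATGGCG in 3.95%, 2.31% and 4.62%. Windows of repeatedly hit genes thus stood close to those of other hit genes on each motif. A match describes letters and no binding, and 1 window may hold several motifs.

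Along the gene, peaks lay past the middle more often than before it. For the 122 genes with a strand in the promoter table, 194 of 305 series 1 peaks (63.6%, exact binomial 95% interval 57.9 to 69.0%) and 209 of 311 series 2 peaks (67.2%, 61.7 to 72.4%) had their midpoint in the 3′ part of the span. The median position was 59.0% of the way from the 5′ to the 3′ end in series 1 and 63.3% in series 2. Of 5 equal parts of the span, the one at the 5′ end held 10.2% of series 1 peaks and 8.36% of series 2 peaks, and the fourth held 28.5% and 29.3%. In both lists the part at the 5′ end was lowest and the fourth highest. The same held in other mid-length genes with a peak, at 9.17% and 10.4% for the 5′ end and 27.7% and 25.7% for the fourth. In repeatedly hit genes the part at the 3′ end held 19.7% in series 1, below the 26.6% of the middle part. In series 2 it held 24.8%, above the 21.5% of the middle part. Of peaks in other mid-length genes, 63.3% (61.3 to 65.3%) in series 1 and 59.7% (57.8 to 61.7%) in series 2 lay past the middle. The intervals overlapped in series 1 and met only at 61.7% in series 2, where the share was higher in repeatedly hit genes. The last 2 kb of the span were reached by 11 peaks in each list (3.61% and 3.54%), against 7.47% and 7.67% in other mid-length genes. The first 2 kb were reached by 1 and 2 peaks (0.328% and 0.643%), against 1.24% and 1.82%. These shares were not adjusted for gene length, and the difference was not tested. Peaks of 1 gene are not independent, so these intervals cover counting error only.

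**Figure D1:**
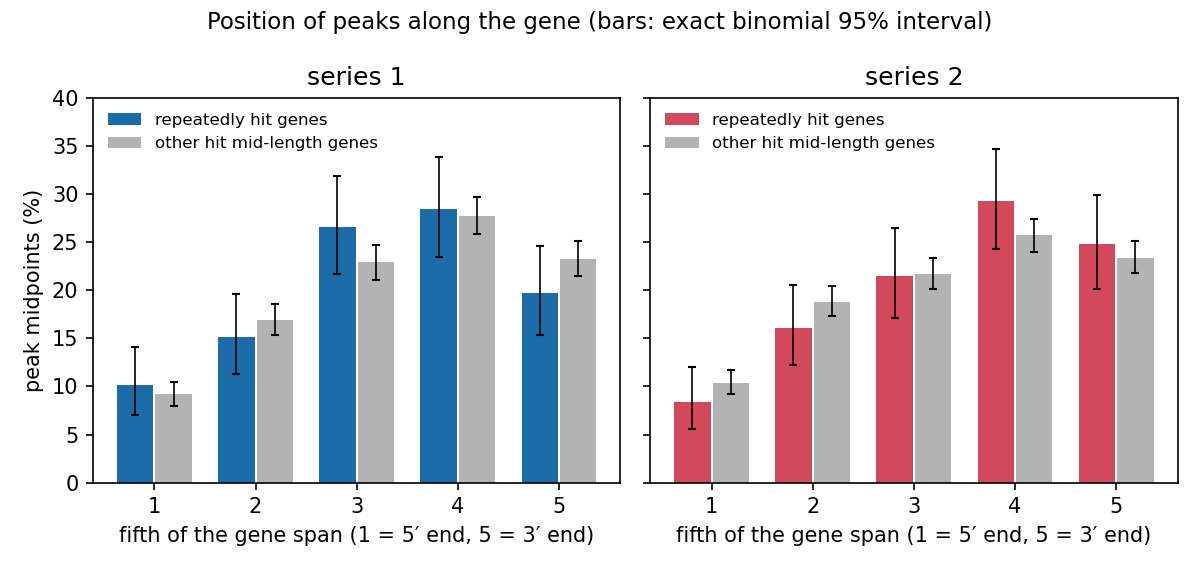
Share of peak midpoints (%, y axis) in each of 5 equal parts of the gene span from the 5′ end (1) to the 3′ end (5), for repeatedly hit genes (coloured) and other mid-length genes with a peak (grey), by series, with exact binomial 95% intervals. The part at the 5′ end is lowest in both series, at 10.2% and 8.36% of peaks of repeatedly hit genes, and the fourth is highest, at 28.5% and 29.3%. The same parts are lowest and highest in the other mid-length genes.

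Many of the 146 genes only just met the rule. Exactly 2 peaks in each list were found in 69 genes (47.3%), and at least 4 peaks in at least 1 list in 29. The 146 genes are 1.27% of mid-length coding genes. At least 2 peaks in series 1 were found in 577 genes (5.00%), at least 2 in series 2 in 629 (5.45%), and at least 1 in each in 1001 (8.68%). The 146 are 25.3% of the 577 and 23.2% of the 629. Of the genes just outside, 189 had at least 2 peaks in series 1 and 1 in series 2, and 203 had 1 in series 1 and at least 2 in series 2. The share was higher in longer genes: the rule was met by 0.153% of genes of 10 to 20 kb, 0.923% of those of 20 to 50 kb and 3.70% of those of 50 to 100 kb. Repeatedly hit genes had a median span of 60.6 kb against 26.8 kb over all mid-length genes. The shortest was Rnf31 at 12.0 kb and the longest Zfp236 at 99.3 kb, with Wls next at 99.0 kb. Just outside the length limits lay Hnrnpa2b1 at 9.62 kb, with 2 peaks in each list, and L3mbtl3 at 101.6 kb, with 3 and 2. Other coding genes overlapped 24 of the 146 spans (16.4%), and a peak there cannot be given to 1 gene, but no peak touched 2 of the 146.

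**Figure D2:**
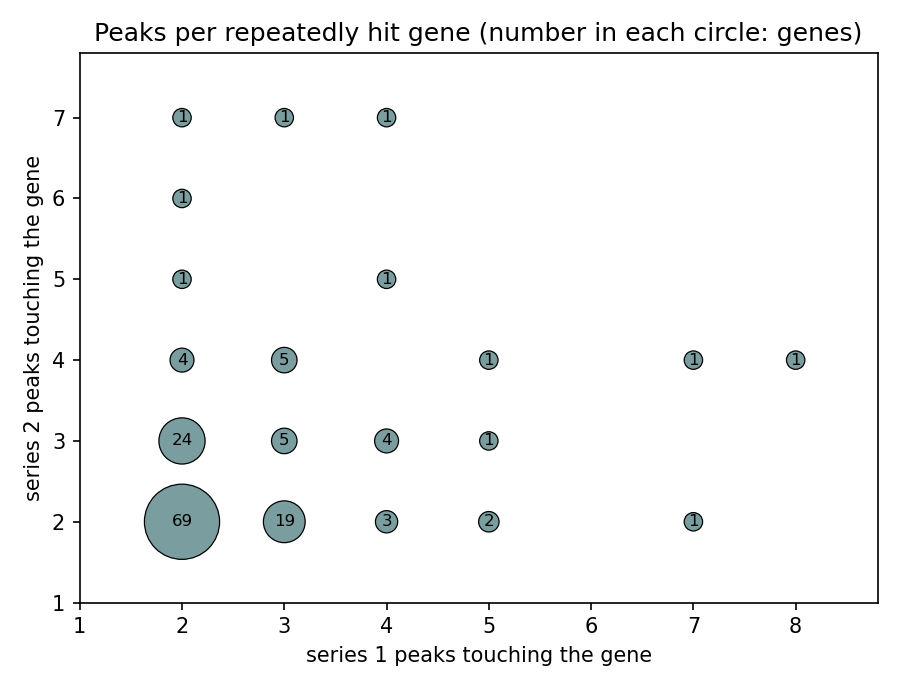
Number of series 1 peaks (x axis) and series 2 peaks (y axis) touching each of the 146 genes; the area and the number of each circle give the genes at that pair of values. The circle at 2 peaks in each list holds 69 genes, and genes with 7 or 8 peaks in 1 list had 2 to 4 in the other.

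Peaks of these genes had median scores within 1 of those of other mid-length genes in both lists, and larger median widths. The median score was 22 (interquartile range 17 to 31) in series 1 and 17 (13 to 22) in series 2, against 21 and 17 for peaks in other mid-length genes. The median width was 620 bp in series 1, against 555 bp in other mid-length genes and 469 bp in genes over 100 kb. In series 2 it was 235 bp, against 224 and 222 bp. Peaks of at most 225 bp, which is 9 bp above the narrowest of that list, made up 43.2% of series 2 peaks in repeatedly hit genes, 54.7% in other mid-length genes and 65.5% in genes over 100 kb. Peaks over 1 kb numbered 86 in series 1 (23.4%) and 48 in series 2 (12.8%), against 18.4% and 6.10% in other mid-length genes. The lists were called against different inputs, so widths and scores are compared within a list only.

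Neighbouring peaks of 1 list lay a median of 8432 bp apart in series 1 and 7621 bp in series 2. They were under 1 kb apart in 4 of 222 and 4 of 229 pairs, and the smallest gaps were 923 and 875 bp. Whether the caller joined stretches nearer than this into 1 peak is not known. The few short gaps therefore describe the lists and are no trait of these genes. From the first to the last peak, the median extent was 26.7% of the span in series 1 and 30.0% in series 2. The peaks themselves covered a median of 2.73% (range 0.520 to 12.2%) and 1.70% (0.444 to 17.7%) of the span. In 106 of the 146 genes series 1 covered more bases. Covered shares follow the widths of each list, with medians of 620 and 235 bp, so they are not like measures. A mean ± SD of a gene below gives the spread of 2 lists called against different inputs, and no replicate error. At least 5% was covered in both lists in 13 genes, and at least 10% in 2, Plrg1 and Rnf31.

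The rule did not use where within a gene the peaks of the lists fell. A series 1 peak overlapped a series 2 peak in 59 of 146 genes (40.4%, exact binomial 95% interval 32.4 to 48.8%), and the nearest peaks of the lists were under 1 kb apart in a further 17. The median gap between the nearest peaks was 707 bp, against 4515 bp in the 855 genes hit less often. In those genes an overlap was found in 166 (19.4%, 16.8 to 22.2%). A gene with more peaks has more places to overlap and shorter gaps. The rule asked for at least 2 series 2 peaks, so the gaps and the shares per peak below also depend on the choice of genes. Per peak the shares were closer: 18.8% (14.9 to 23.1%) of 368 series 1 peaks in repeatedly hit genes and 14.8% (12.8 to 17.0%) of 1121 gene-peak pairs in the others. Among genes of 20 to 50 kb the shares per peak were 31.1% (22.5 to 40.9%) and 16.9% (13.8 to 20.4%), and among genes of 50 to 100 kb they were 12.0% (8.24 to 16.7%) and 8.56% (6.21 to 11.4%). The lists shared 28.1 kb in repeatedly hit genes, which is 10.6% of the bases of series 1 there and 15.5% of those of series 2. In 11 genes the nearest peaks were over 10 kb apart, up to 30571 bp in Ppp1r13b. The share of genes with an overlap was 57.1% among the 49 genes that met the rule with series 2 peaks over 250 bp alone.

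**Figure D3:**
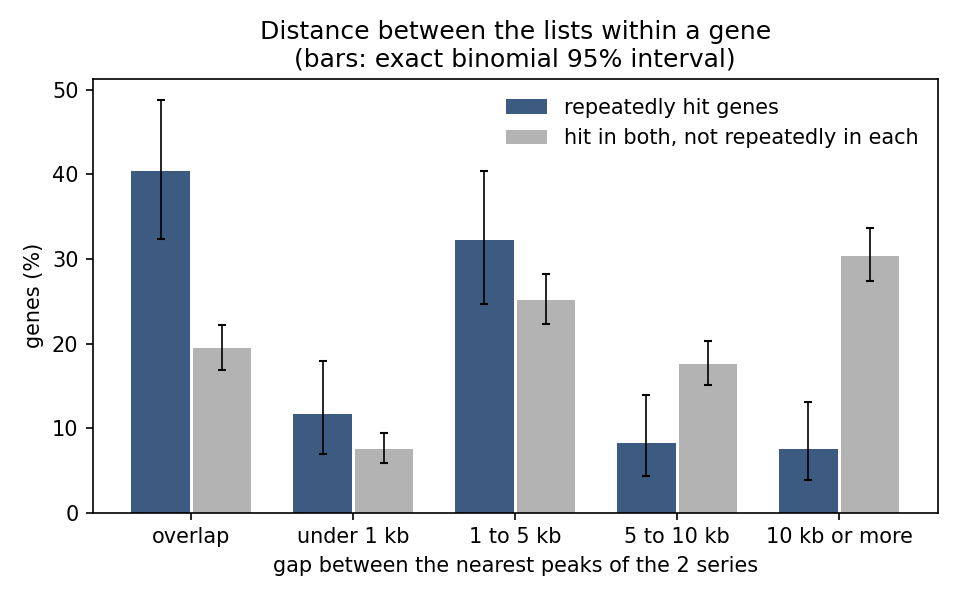
Share of genes (%, y axis) by the gap between the nearest peaks of the 2 series within the gene, for the 146 repeatedly hit genes and the 855 genes hit in both lists less often, with exact binomial 95% intervals. Overlap was found in 40.4% and 19.4% of genes, and a gap of 10 kb or more in 7.53% and 30.4%. The 146 genes have more peaks by the rule, and the shares were not adjusted for this.

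Genes of RNA polymerase II transcription were the first group. Polr2a encodes the largest subunit of RNA polymerase II (gene ID 20020, chr11:69733997-69758633, mm10). It had 2 peaks in each list, over 7.18% and 10.7% of its span in series 1 and 2, 8.96% ± 2.51 (SD, n = 2). Both pairs overlapped: the series 1 peaks of 648 and 1122 bp shared 648 and 1036 bp with series 2 peaks of 1106 and 2004 bp. All 4 had their midpoints 76.8 to 97.8% of the way to the 3′ end, so both lists placed the mark late in this gene. Supt16 encodes the large subunit of the histone chaperone FACT. Its 2 series 1 peaks had scores of 15 and 207, the highest score among the 368, and its 2 series 2 peaks had 17 and 69. None overlapped, the nearest being 2267 bp apart, and the Supt16 span overlaps another coding gene. Rtf1, an elongation factor that works with the Paf1 complex, had 2 peaks in each list over 2.10% and 1.42%, the nearest 22651 bp apart. Cdk12, a kinase of the polymerase tail, had 2 and 3 over 3.10% and 2.59%, the nearest 2526 bp apart. These 4 were among 19 mid-length genes of a list for polymerase II and elongation (21.1%), where 1.27% of all mid-length genes met the rule. The 19 genes have a median span of 38.8 kb, and 8 of them had a peak in each list, against 8.68% of all mid-length genes.

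Chromatin regulators included 4 of the 10 genes with most peaks, Srcap, Kdm5a, Smarca5 and Ep300. By known role, 28 of the 146 genes act in transcription or chromatin, with 74 and 77 peaks, and the lists overlapped in 12 of them. Roles were given to the 146 genes only, so no count by role here or below has a share over all mid-length genes beside it. Srcap, the ATPase of a remodeller that deposits the histone variant H2A.Z (gene ID 100043597, chr7:127511983-127561219), had 4 and 7 peaks in series 1 and 2. They covered 9.55% and 8.27% of the span, 8.91% ± 0.906 (SD, n = 2). Peak midpoints ran from 2.12 to 48.9 kb past the 5′ end, and 3 of the series 1 peaks were overlapped. The 954 bp series 2 peak 19.2 kb into the gene had a score of 145, the highest of the 375, and lay wholly inside a series 1 peak of 2495 bp and score 26. Kdm5a, an H3K4 demethylase, had 7 and 4 peaks over 7.09% and 2.45% of its span, none of them overlapping, with the nearest 623 bp apart, and its span overlaps another coding gene. Smarca5, the ISWI remodeller, had 4 and 5 over 6.36% and 7.45%, and Ep300, a histone acetyltransferase, had 5 and 3 over 9.25% and 5.24%. In Ep300 the series 1 midpoints lay 29.1 to 44.7 kb from the 5′ end and those of series 2 45.3 to 57.6 kb, meeting in 1 shared stretch of 937 bp.

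Other chromatin genes differed in how the lists covered them. Chd3, a NuRD remodeller, had 2 and 4 peaks over 6.19% and 9.53%, and both series 1 peaks were overlapped. Baz1b, a bromodomain partner of Smarca5, had 5 peaks in series 1 over 6.23% and 2 in series 2 over 4.07%. Kdm2a, an H3K36 demethylase, held the widest peak of the 368, 2637 bp with a score of 27, and 3 narrow series 2 peaks of at most 292 bp, with no overlap. Its span overlaps another coding gene. Kmt2a, an H3K4 methyltransferase, held a series 1 peak of 2505 bp and 2 series 2 peaks of 217 and 866 bp. Of 29 mid-length genes named as Kmt, Kdm, Setd or Nsd, 4 met the rule (13.8%, against 1.27% of mid-length genes), the fourth being Setd5. Of 25 genes in a list of remodellers and coactivators 3 did, and of 23 in a list for writers, erasers and readers of H3K36 methylation 1, Kdm2a. The median spans of these lists were 46.2, 43.5 and 38.3 kb, above the 26.8 kb of all mid-length genes.

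**Figure D4:**
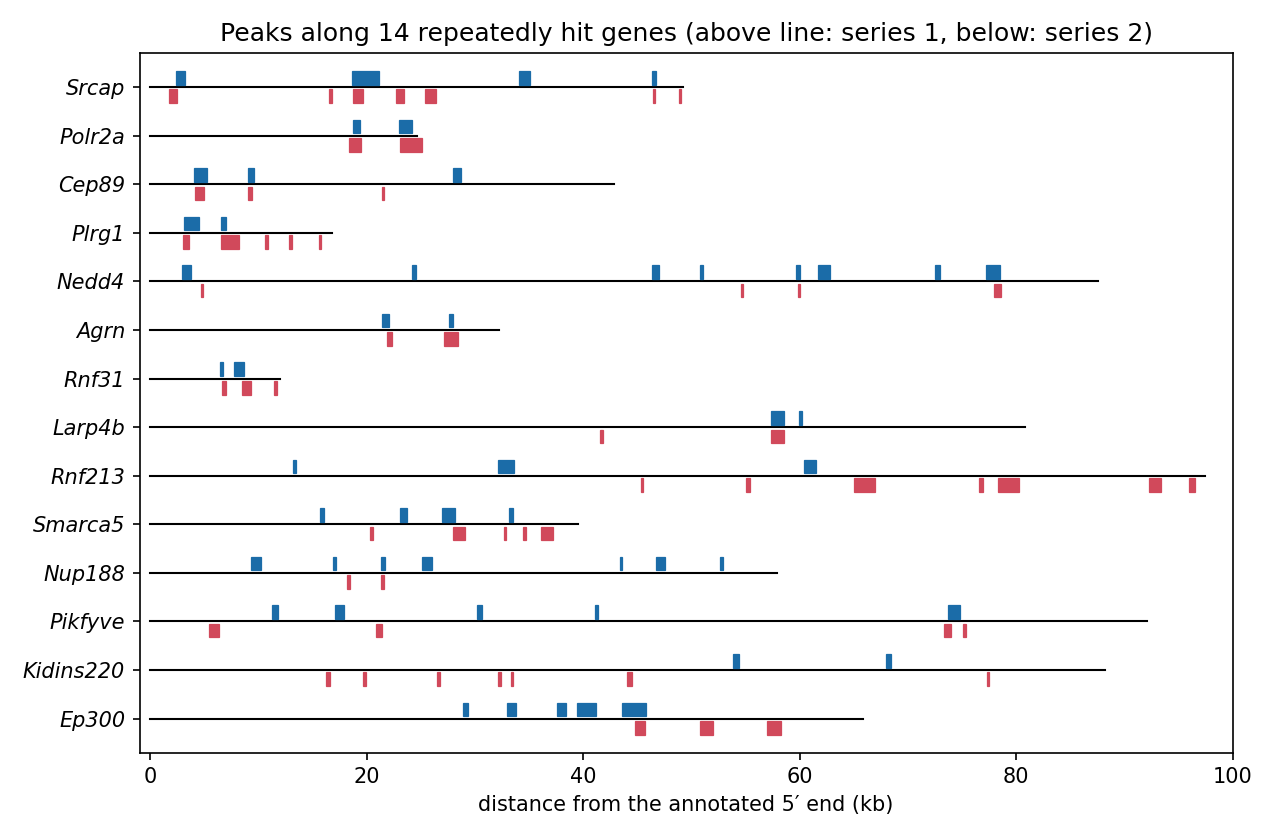
Peaks along 14 repeatedly hit genes drawn to scale by distance from the annotated 5′ end (kb, x axis), series 1 above the line and series 2 below; the genes are the 8 with most overlapped peaks and the next 6 by peak number among those with a known strand. In Polr2a both pairs of peaks coincide near the 3′ end, while in Kidins220 the 2 series 1 peaks lie between the last series 2 peaks and meet none.

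Splicing and RNA processing genes included the best covered gene of all. Plrg1, a component of the Prp19 complex of the spliceosome (gene ID 53317, chr3:83055538-83072291), had 2 and 5 peaks over 10.9% and 17.7%, 14.3% ± 4.84 (SD, n = 2). Both series 1 peaks were overlapped, and the series 2 peaks continued to 93.5% of the way to the 3′ end. Rbm5, a regulator of splice site choice, had 2 and 4 peaks over 8.86% and 4.04%, with 30 bp shared. Hnrnpm, a pre-mRNA binding protein, had 3 and 2 over 9.27% and 2.81% with no overlap and a gap of 6023 bp. Ik, a spliceosomal protein of 13.0 kb, had 2 and 2 over 8.77% and 4.71%, and 1 series 1 peak scored 94. By their known roles, 12 of the 146 genes act in splicing or 3′ processing, and the lists overlapped in 5 of these. These roles were assigned once the 146 genes were known and are a description. Of 18 mid-length SR protein and hnRNP genes 1 met the rule, and of 26 Rbm genes 1. Of 32 genes of the core splicing factor families 0 did, which allows up to 9.38%. Over all mid-length genes the share was 1.27%, so 0 of 32 does not set these families apart. At least 1 peak in each list was found in 11 of those 32, against 8.68% of all mid-length genes.

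Nuclear pore and nuclear transport genes recurred. Of 39 mid-length nucleoporin and karyopherin genes, 6 met the rule (15.4%), against 1.27% of all mid-length genes. A peak in each list was found in 10 of the 39, against 8.68% of all mid-length genes. By known role 8 of the 146 genes belong here, Tpr and Cse1l added, and the lists overlapped in 2 of the 8. Nup188, of the inner pore ring (gene ID 227699, chr2:30286407-30344266), had 7 peaks in series 1 over 7.16% of its span and 2 in series 2 over 0.759%. The series 1 peaks spread over 75.4% of the span and the series 2 peaks over 5.78%, with 1 pair overlapping by 222 bp. Nup88, of the cytoplasmic face, had 2 and 2 peaks over 5.93% and 1.70%, and Xpo5, the exporter of pre-miRNA, 2 and 2 over 1.71% and 1.68%. Neither had an overlap. Nup155, with 2 and 4 peaks over 1.18% and 1.89%, and Nup214, with 2 and 2 over 1.98% and 1.08%, had none either. Tnpo1, an import receptor, had 2 and 2 over 0.765% and 1.20%, with 199 bp shared. The spans of Nup88, Nup214 and Tnpo1 overlap other coding genes. The median span of the 39 genes was 42.1 kb.

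By known role, 8 of the 146 genes act in translation or ribosome assembly and 11 in ubiquitin, SUMO or proteasome pathways, and the lists overlapped in 3 of each. Eif3a, a subunit of initiation factor 3, had 3 series 1 peaks over 4.01% and 2 series 2 peaks over 8.37%, among them the widest of the 375, 2177 bp with a score of 14. No peaks overlapped, and the nearest were 2093 bp apart. Eif5b, the subunit-joining GTPase, had 2 and 2 over 3.87% and 0.770%, sharing 6 bp in a span that overlaps another coding gene, and Dhx29, a helicase of initiation, 2 and 2 over 4.11% and 5.00% without overlap. Of 37 mid-length initiation factor genes, 2 met the rule (5.41%), against 1.27% of all mid-length genes. Rnf31 encodes the catalytic subunit of the LUBAC ligase, which builds linear ubiquitin chains in NF-kappaB signalling (gene ID 268749, chr14:55591713-55603674). It had 2 and 3 peaks over 10.3% and 12.3%, 11.3% ± 1.47 (SD, n = 2). Both series 1 peaks were overlapped, and the 5 midpoints lay 55.0 to 96.5% of the way to the 3′ end. It was the 1 gene among 25 mid-length genes of the NF-kappaB list to meet the rule.

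Nedd4, a HECT ubiquitin ligase, had the most peaks of the 146 genes, 8 in series 1 and 4 in series 2. They covered 6.24% and 1.49% of the span and their midpoints ran from 3.34 to 78.3 kb past the 5′ end, with 2 series 1 peaks overlapped. Rnf213, a giant ligase and ATPase that responds to interferon, went the other way, with 3 and 7 peaks over 2.91% and 6.65%. Its series 2 peaks included 2 of 1949 and 1913 bp, the first of them the third widest of the 375. None of them met a series 1 peak, the nearest gap being 3522 bp. Ubfd1, which encodes a ubiquitin-like domain protein, had 9.58% and 9.71% covered, 9.65% ± 0.0936 (SD, n = 2). A 729 bp series 1 peak of Ubfd1 lay wholly under a series 2 peak. Psmd14, the deubiquitinase of the proteasome lid, had 2 and 2 over 0.929% and 1.04%, the nearest 1014 bp apart.

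Epithelial genes were among the 146, but none of the listed cell type markers was. Krt7, a keratin of simple epithelia (gene ID 110310, chr15:101412403-101427806), had 2 peaks in each list over 7.91% and 9.13%, 8.52% ± 0.868 (SD, n = 2). A series 1 peak of score 40 and a series 2 peak of score 72 shared 214 bp, with midpoints 5.63 and 4.66 kb past the 5′ end. The other series 1 peak of Krt7, of 907 bp, only reached into the gene, with its midpoint past the 3′ end at 102.7% of the span. When peak midpoints had to lie inside the gene, 145 genes met the rule and Krt7 did not. It was 1 of 11 mid-length keratin genes, and the other 10 had no peak in either list. Dsg2, a desmosomal cadherin, had 2 and 2 over 3.25% and 1.83%, and a 439 bp series 2 peak of score 23 lay inside a 605 bp series 1 peak of score 90. Agrn, a basement membrane proteoglycan, had both series 1 peaks overlapped, with 3.08% and 5.53% covered. By known role, 11 of the 146 genes encode epithelial filaments, adhesion proteins or cortical actin regulators, and the lists overlapped in 6. The markers of medullary, cortical and mature thymic epithelium and of 5 other cell types numbered 59, of which 38 are mid-length, and 0 met the rule. For 38 genes a count of 0 allows a share of up to 7.89%. Over all mid-length genes the share was 1.27%, so 0 does not set the markers apart from other genes. At least 1 peak in either list was found in 8 of 15 medullary, 2 of 6 cortical and 3 of 6 mature medullary markers. The same held for 3 of 5 myeloid and dendritic, 2 of 5 B cell, 2 of 6 fibroblast, 1 of 5 endothelial and 1 of 11 thymocyte markers. No share of all coding genes with a peak in either list stands beside these counts, so they do not set any cell type apart. The marker lists are short and differ in gene length, and a difference between epithelial and other cell types was not tested. Itga6, with 1 and 4 peaks, and Lamb3, with 3 and 1, were the medullary markers with peaks in each list in this length range. They are named after their values were seen. Epcam and Foxn1, which stand in the medullary list but need not mark medullary cells alone, had no peak in either series. Nor had Cd3e, Cd4 and Lck of the thymocyte list.

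By known role, 14 of the 146 genes act in membrane traffic, and the lists overlapped in 4 of them. Pikfyve, the endosomal lipid kinase, had 5 and 4 peaks over 3.51% and 2.55%, and its top series 2 peak, with a score of 71, shared 224 bp with a series 1 peak of score 27. Vps33a, of the endosomal tethering complexes, had 2 and 2 over 2.94% and 1.51% with 159 bp shared. Snx14, a sorting nexin, had 2 and 2 over 1.44% and 1.67%, the nearest 15132 bp apart. Wls, the carrier of Wnt proteins to the cell surface, had 2 and 2 over 1.42% and 0.445%, 4412 bp apart. Prrc1, a protein of the early secretory pathway, had 3 and 3 over 6.02% and 7.32%, with 1366 bp shared by 2 overlapping pairs. Kidins220, a scaffold of neurotrophin signalling, had 2 peaks in series 1 and 7 in series 2. Those of series 1 lay at 54.1 and 68.2 kb, and 6 of the 7 of series 2 lay between 16.4 and 44.3 kb from the 5′ end. The 5 genes of cilium and centriole by known role each had an overlap, against 40.4% of all 146 genes. The group is small and was formed once the 146 genes were known, and the difference was not tested. Cep89, of the centriole appendages, had 3 and 3 peaks over 5.99% and 3.29% with 2 pairs overlapping by 1189 bp in all. Of 45 mid-length Rab GTPase genes 0 met the rule, which allows up to 6.67%, and of 42 Vps and sorting nexin genes 2 did. Over all mid-length genes the share was 1.27%.

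Signalling, metabolic and zinc finger genes completed the set. Gpi1, the glycolytic glucose phosphate isomerase, had 2 and 3 peaks over 10.2% and 5.67%, and a 1154 bp series 2 peak lay wholly inside a series 1 peak of 1801 bp. Stat5b, a cytokine signal transducer, had 2 and 2 over 1.499% and 1.27%, with a 222 bp series 2 peak of score 74 that met no series 1 peak, while the other pair shared 6 bp. Mknk1, a kinase of translation factor eIF4E, had a series 1 peak of 240 bp and score 116. No series 2 peak met it, while its other series 1 peak, of score 21, shared 248 bp with a series 2 peak of score 28. Dzip3, an RNA-binding ubiquitin ligase, had a series 1 peak of 230 bp and score 89 that no series 2 peak touched. Its other series 1 peak, of 925 bp and score 15, shared 218 bp with a series 2 peak of score 12. Slc25a12, the mitochondrial aspartate-glutamate carrier, was 1 of 276 mid-length solute carrier genes to meet the rule (0.362%). Trim24, a transcriptional cofactor, had 2 and 2 peaks, the nearest 27680 bp apart. Single genes met the rule among 45 tripartite motif genes, 44 DEAD and DEAH box helicase genes, 27 proteasome genes and 9 Jak and Stat genes, and 2 of 48 RING finger genes did. Zinc finger protein genes met the rule in 4 of 315 cases (1.27%), equal to the share over all genes. Zfp106, Zfp236 and Zfp280d, the best covered 3 of them, had 1.14%, 1.97% and 1.64% covered in series 1 and 1.01%, 0.444% and 1.37% in series 2, with no overlap. The rule was met by 0 of 71 mid-length cytochrome P450 genes, 39 kinesin and myosin genes, 38 ubiquitin-specific protease genes, 31 MAP kinase cascade genes, 24 integrin genes and 17 collagen genes. For the 38 protease genes 0 allows a share of up to 7.89%. A peak in each list was found in 9 of them, against 8.68% of all mid-length genes. By known role 3 more of the 146 act in DNA repair or chromosome segregation, and 46 have none of the roles named here.

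**Figure D5:**
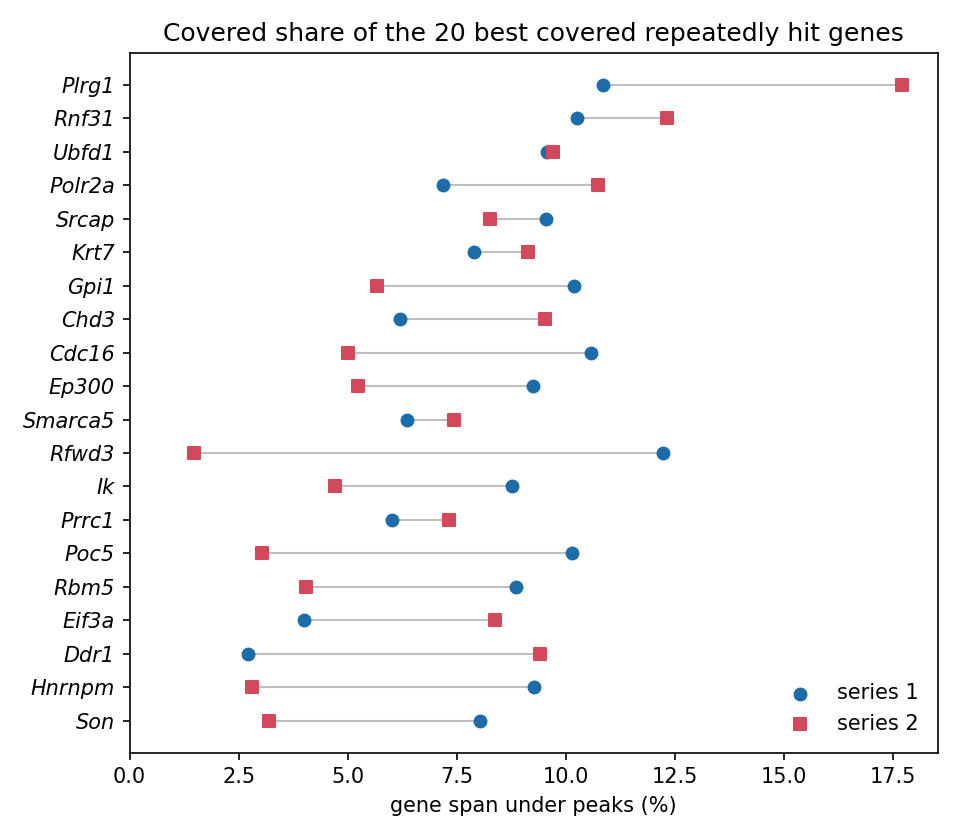
Share of the gene span under peaks (%, x axis) in series 1 (circles) and series 2 (squares) for the 20 repeatedly hit genes with the highest mean; a grey line joins the 2 values of a gene. Plrg1 is highest at 10.9% and 17.7%, Ubfd1 shows the closest pair at 9.58% and 9.71%, and Rfwd3 the widest apart at 12.2% and 1.48%.

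The size of the set depended on the score minimum. Its peaks had median scores of 22 in series 1 and 17 in series 2, against 21 and 16 for all peaks of each list. A minimum of 20 thus takes out many peaks of either list, and how many other genes lose their peaks at it was not compared. When peaks scoring below 20 were left out, 13 of the 146 genes kept at least 2 peaks in each list, among them Dsg2, Golgb1, Kdm5a, Mknk1, Pikfyve, Rbl2, Rnf213, Slc25a12, Srcap, Taok1 and Trappc8. With a score of at least 50, 0 did. With only series 2 peaks over 250 bp, 49 genes met the rule.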

How the data were processed

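H3K36me3 was measured by ChIP-seq in 2 mTEClo libraries with 3 input libraries. Per the submitters' processing notes, Bowtie2, SAMtools and MACS2 were used on mm10; no version or setting is given in the sources used here. The authors deposited broad peaks per ChIP library with a whole-number score; per the peak names in the files, series 1 was called against 2 inputs and series 2 against 1. Depth is unknown, and intervals cover counting error only. Input libraries were not used directly.

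Gene spans came from RefSeq (GRCm38.p6), 21883 coding genes, without exons or introns. Strand came from RefSeq start windows. A peak counted for each gene with which it shared at least 1 bp. Intervals are exact binomial (95%); the limit for a count of 0 is 3 counts. Functions were tested on simulated data. Python 3.11.15, numpy 2.4.6, pandas 2.3.3, scipy 1.17.1 and matplotlib 3.10.9 were used.

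The genes, lists, families and naming rule were chosen with earlier results of these data known, and roles after the members were known. Named were the genes with most peaks (10), highest mean covered share (8), most overlapped peaks (8), highest scores (5 per list), widest peaks (3 per list) or largest difference in peak number (3 per direction), members of 12 written lists, up to 3 per symbol family (28 families), and those next to the length limits. Alternatives changed the score minimum, the width of series 2 peaks, joining of close peaks, the overlap definition, the length range, overlapping genes and the series used. Some genes and families that the rule names are not reported here. No significance test was run: each series has 1 library.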

Additional observations from a re-analysis of the deposited data

How the results depend on the processing

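No paired analysis was possible because the input libraries have no peak list and no result comes from a test. Of 61 values under other settings, 38 moved by less than the limit set for them and 23 by more. Leaving out scores below 20 left 13 genes and 65 peaks, with an overlap in 53.85% of genes and median scores of 33 and 26; at least 50 left 0 genes and 0 peaks, so no share or median could be given. Series 2 peaks over 250 bp alone left 49 genes and 247 peaks, with overlap in 57.14% and median covered shares of 3.906% and 2.826%. Spans of 20 to 50 kb held 47 genes and 234 peaks, with overlap in 55.32% and covered shares of 3.934% and 2.981%. Counting only overlaps of 50% of the narrower peak gave 32.19% of genes, and allowing a gap of 1 kb gave 52.05%. When 1 replicate was left out, the rule rested on the other list alone, so the count of genes ranged from 577 to 629 and that of peaks from 1349 to 1454. Joining peaks under 3 kb apart left 109 genes, and taking only genes that overlap no other coding gene left 122. The causes of these shifts were not tested. With 1 list left out, median covered shares were 3.31% and 1.698% and median scores 21 and 17. Depth is unknown, so a gene outside the set is not shown to lack the mark.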

Other observations

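A few peaks had almost the same edges in both lists, although the lists were called separately. Of the 69 series 1 peaks in repeatedly hit genes that a series 2 peak overlapped, 5 matched within 50 bp at both ends. In Skint10, a gene of the Skint family of thymus and skin, the peaks were both 1047 bp wide and offset by 2 bp at each end, with scores of 19 and 30. In Larp4b, which encodes an RNA-binding protein of the La family, widths were 1188 and 1170 bp, with offsets of 12 and 6 bp and scores of 17 and 13. The others, in Golgb1, Pde9a and Slc25a12, were 228 to 334 bp wide. These genes were named after their values were seen.

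Repeatedly hit genes were found on all autosomes. The highest shares were on chromosome 18, with 8 of 272 mid-length genes (2.94%), and on chromosome 12, with 10 of 387 (2.58%). Over all chromosomes the share was 1.27%. On chromosome X there were 0 of 453, which allows a share of up to 0.662%, and on Y 0 of 70, which allows up to 4.29%. These chromosomes were named after their values were seen. The shares were not adjusted for gene length, and differences between chromosomes were not tested.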
